A study of Saccharomyces cerevisiae with 40 samples.

Results

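The genes of chromosome V of budding yeast, Saccharomyces cerevisiae, were followed through a haploid line kept at pH 8.6, in which the signal of the whole chromosome differed between samples. Members were the nuclear genes whose locus tags begin with YEL (left arm) or YER (right arm) and whose signal exceeded array background on at least 2 arrays. Left out were URA3, CYC7, SPI1, MIG3, TMT1, YAT2, PMP2 and TIR1, and all genes whose symbols begin with RPL, RPS or MRP. Of the 289 genes that the R64 gene table lists under these tags, 259 had a matched probe set and 253 passed the background filter. Removing the 13 excluded genes that had passed (7 named genes and 6 ribosomal protein genes) left 240 members, 60 on the left arm and 180 on the right, of 5366 genes tested in all (4.47%). Another 5 genes that fit the rule by name were below the filter. Just outside the filter, YEL076C exceeded background on 1 of 40 arrays with deposited log2 values of 2.99 to 5.52, and just inside it BUD25 did so on 3 arrays with 3.56 to 5.36. Of the members, 233 exceeded background on all 40 arrays and none was below background on both pH spores. Probe sets that can match other genes read 4 of them, YEL076C-A, DSF1, PAU2 and YER138W-A.

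A haploid yeast cell carries 1 copy of each chromosome, and a cell with an additional copy of one of them is called disomic for it. Errors in chromosome segregation produce such cells at random, and their genes of the extra chromosome are usually transcribed in proportion to the copies present. Some proteins made in excess, above all subunits that lack their partners, are known to be degraded, so that a change in messenger RNA need not carry over to protein.

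The study grew yeast for many generations under a constant stress and then measured messenger RNA on 40 one-colour Affymetrix arrays, after 18 generations of growth without stress, at mid log phase. The haploid line was sampled once after 150 generations at pH 8.6 and in 4 numbered replicates after 750 generations at that pH. A euploid spore and a spore labelled disomic, both named after the high-pH line, had 1 array each. The unevolved haploid ancestor had 2 arrays, and 8 spores labelled evo39 entered the estimate of the spread and gave a further reference for chromosome V. The 23 diploid arrays cover the diploid ancestor on rich or minimal medium and unevolved clones trisomic or monosomic for chromosome III. They also cover populations evolved for 450 generations at 30 °C or with heat of 39 °C, applied abruptly or gradually. A line from abrupt heat was kept for another 600 generations at 30 °C, or for another 1000 at 39 °C on minimal medium. Descent of the trisomic clone was sampled after 1000 generations at 39 °C on minimal medium. The diploid arrays had no extra chromosome V in their labels and were used as the reference for the normal chromosome V dose. The labels give no further genotype for the strains. They do not say whether the 4 replicates after 750 generations were separate evolved populations or cultures of 1 population. The p-values therefore measure only the spread between these samples. Among the 4 replicates it may be technical, and among the evo39 spores it includes differences in markers of ploidy and mating type. The design text describes the RNA as taken from population samples. The labels do not name the chromosome that the disomic spore carries in excess.

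Values are log2 signals. Each array was centred on the median of the tested genes off chromosomes III and V, so a centred log2 level of 0 is the typical gene of that array, and a log2 difference of 1 is a doubling. Levels of different probe sets are signals and do not rank transcripts by amount. Identical values shared between arrays showed that the arrays had been normalized in separate sets. The euploid spore, the disomic spore and the 150-generation array formed 1 set. The 4 arrays after 750 generations shared a set with haploid ancestor array 1. The limma contrasts between arrays of the pH line and with the ancestor were made within these sets, whereas levels set against the diploid arrays cross sets.

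Markers of ploidy matched the labels only in part, and the labels give no mating type. The mean centred log2 level of 7 haploid-specific genes was -3.78 to -2.98 on the diploid arrays and 0.08 to 0.21 on the haploid ancestors, both pH spores and the 150-generation array. It was 0.15, 0.19, -0.54 and -1.10 on replicates 1 to 4 after 750 generations. On evo39 spores 1, 5 and 7 it was -3.75, -3.60 and -3.85, at the diploid level. Haploid ancestor array 1 carried the alpha-cell pattern, with 7 a-cell genes at -3.55 and 4 alpha-cell genes at 1.79. Haploid ancestor array 2 and all 7 arrays of the pH line carried the a-cell pattern. So did evo39 spore 3, whereas evo39 spores 2, 4, 6 and 8 carried the alpha-cell pattern.

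The chromosome V members stood clearly apart on the 150-generation array and on the spore labelled disomic. Relative to the mean of the 23 diploid arrays, the median member was higher by 0.79 on the 150-generation array and by 0.78 on the disomic spore. The euploid spore lay at 0.05. The diploid arrays themselves ran from -0.09 to 0.07 with an SD of 0.06, the haploid ancestors lay at -0.08 and -0.06, and the evo39 spores at -0.09 to -0.04. After 750 generations the 4 replicates gave -0.03, -0.04, 0.27 and 0.33. Replicates 1 and 2 were within the diploid range, and replicates 3 and 4 lay above it and below the disomic spore. In RNA from many cells, a share of cells with an extra chromosome and a smaller gain in every cell cannot be told apart.

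**Figure D1:**
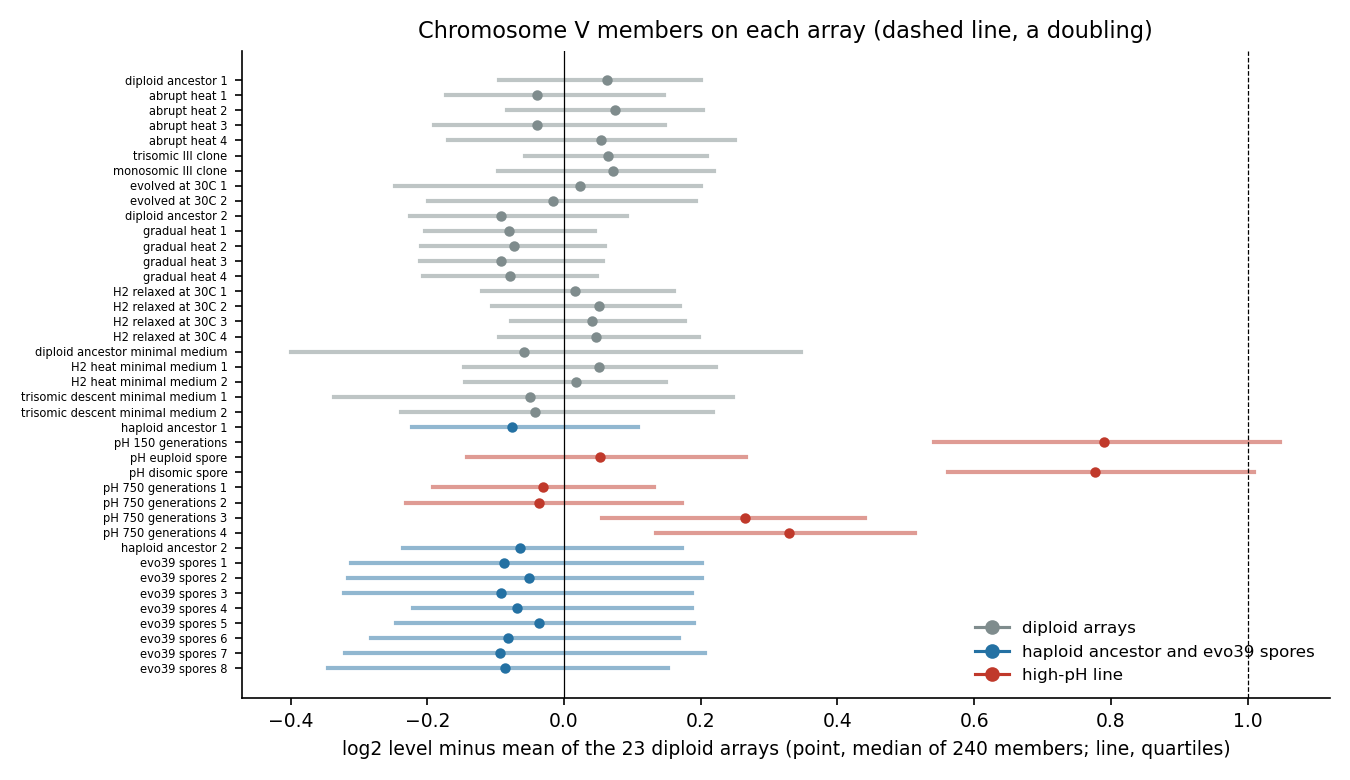
Median (point) and quartiles (line) of the 240 members on each of the 40 arrays, as log2 level minus the mean of the 23 diploid arrays, with the diploid arrays in grey, haploid ancestors and evo39 spores in blue and the high-pH line in red. The 150-generation array at 0.79 and the disomic spore at 0.78 stand apart, and replicates 3 and 4 after 750 generations lie between them and the other arrays.

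Counted gene by gene, 179 of 240 members on the disomic spore exceeded the highest of the 23 diploid arrays, against 12.2% of all tested genes. On the 150-generation array 175 did (12.2% of all tested genes). The euploid spore had 23 such members (7.79%). Replicates 1 to 4 after 750 generations had 12 (4.7%), 14 (5.87%), 60 (6.19%) and 84 (6.43%), and haploid ancestors 1 and 2 had 11 (5.05%) and 15 (5.55%). Shares of the ancestors and of replicates 1 and 2 were near those of all genes. These counts cross normalization sets, and those of the 750-generation replicates depended on scale and reference. With values as deposited they were 0, 0, 1 and 1. With the haploid ancestors and evo39 spores as reference they were 50, 38, 162 and 180, against 15.2%, 14%, 20.9% and 22.7% of all tested genes, and the euploid spore had 95 (36.9%). MET6, which encodes methionine synthase, was the only member below every diploid array on the disomic spore and also on the 150-generation array. Of the genes off chromosomes III and V, 7.63% and 6.22% were below every diploid array on the same arrays.

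The disomic spore was then compared with the euploid spore of the same line, to measure how each gene responded to the additional chromosome. The difference also carries what is particular to the euploid array. Its level against the diploid median fell with gene length, with a Spearman's rho of -0.33 over members and -0.27 off chromosomes III and V. For the disomic spore the rho over members was 0.03. The disomic minus euploid difference had a rho of 0.40 with gene length over members. The 150-generation minus euploid difference, which shares the euploid array, had 0.21. The part of gene length in single rises was not tested. With limma's moderated test and Benjamini-Hochberg adjustment over 5366 genes, 141 of 240 members (58.75%) were higher and 1, SIT1, was lower. Of all tested genes, 4.19% were called higher and 1.86% lower. With p-values left unadjusted, at a threshold of 0.05, 198 members were higher and 2 lower, against 10.4% and 7.7% of all tested genes. A positive difference, called or not, was seen for 232 members. The members' median difference was 0.78, a 1.71-fold ratio, with quartiles of 0.56 and 0.97, whereas genes off chromosomes III and V had quartiles of -0.14 and 0.12. Each side of the comparison is 1 array, and the spread came from the replicated groups, the 4 arrays after 750 generations and the 8 evo39 spores. The former differed among themselves in chromosome V level, and that difference entered the spread of the members. Without them, a choice made after seeing the data, 158 members were higher and 1 lower, against 4.12% and 1.38% of all tested genes. The median SE of a member's difference was 0.19. Without the 3 evo39 spores at the diploid marker level, a choice made after seeing the data, 119 members were higher and 1 lower. Of all tested genes 4.08% were higher and 2.16% lower in that fit.

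The 95% intervals sorted the members by their response. The interval lay wholly above 0 for 198 members, against 10.4% of all tested genes. It covered a doubling but not 0 for 157 members, and both for 19. For 39 members it lay between 0 and 1, that is, above no response and short of a doubling. For 23 it covered 0 or lower values and excluded a doubling. It lay wholly above a doubling for YER034W and RPH1.

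The response extended along the whole chromosome. The median difference was 0.78 on the left arm, where 31 of 60 members rose, and 0.78 on the right arm, where 110 of 180 did. Medians of 12 neighbouring windows of 20 members ran from 0.53 (YEN1 to HMF1) to 0.89 (GLO3 to UBP5) in the disomic spore. On the 150-generation array they ran from 0.65 to 0.88, also against the euploid spore. Across the 240 members, the disomic difference and the order along the chromosome had a Spearman's rho of 0.06, a description over genes that share both arrays.

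**Figure D2:**
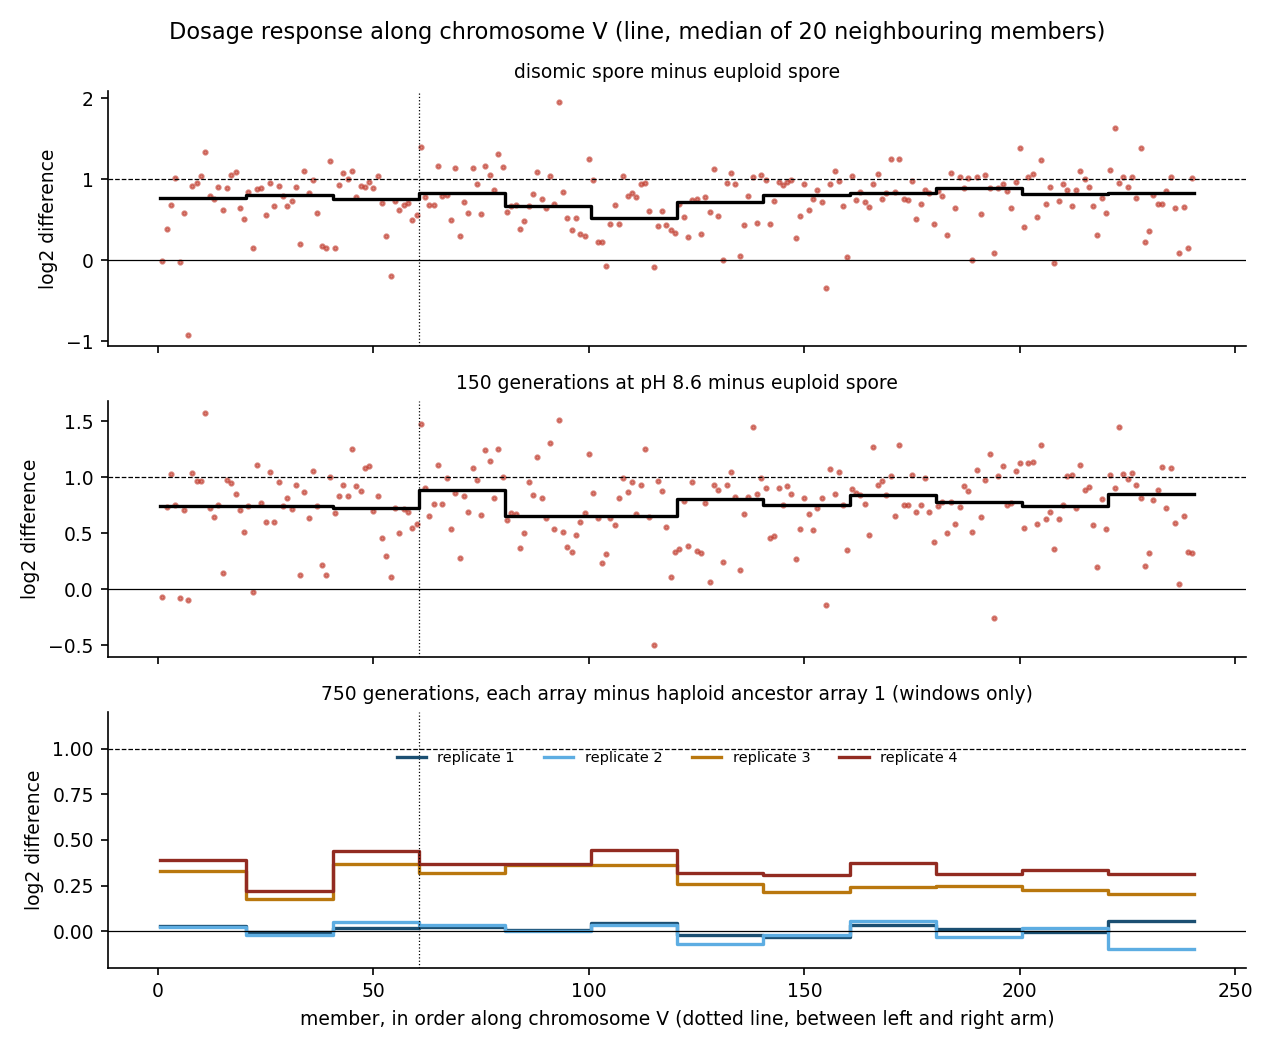
Log2 difference of each member (points) and median of 20 neighbouring members (line) in order along chromosome V, for the disomic spore and the 150-generation array against the euploid spore, and windows only for the 4 arrays after 750 generations against haploid ancestor array 1. In the upper 2 panels the lowest window is at 0.53. In the bottom panel the lowest windows of replicates 3 and 4 are at 0.18 and 0.22, and replicates 1 and 2 run from -0.10 to 0.06.

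YER034W, an uncharacterized gene, had the largest rise. Its centred log2 level was 0.04 on the euploid spore, 2.00 on the disomic spore and 1.56 on the 150-generation array, with diploid arrays at -0.84, -0.48 and -0.09 (lowest, median, highest) and haploid ancestors at -0.51 and -0.56. The disomic spore and the 150-generation array were far above all of these, and replicates 1 to 4 after 750 generations were at -0.38, -0.59, -0.12 and 0.13. The disomic minus euploid difference was 1.95 ± 0.25 (SE; 1 array each; limma, adjusted p = 0.00135).

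RPH1, which encodes a histone demethylase, followed with 1.63 ± 0.23 (adjusted p = 0.00202 by limma). Its level was -1.56 on the euploid spore and 0.07 on the disomic spore, with the 150-generation array at -0.65 and the diploid range from -1.68 to -0.55. The disomic spore alone exceeded the diploid arrays, and the 150-generation array lay just inside their range. MNN1, a Golgi mannosyltransferase of glycan chains, stood at 0.66 on the euploid spore, 2.05 on the disomic spore and 2.13 after 150 generations, against diploid arrays of 0.48 to 1.74. Both arrays with the high chromosome V signal exceeded the diploids, and the difference was 1.40 ± 0.30 (limma adjusted p = 0.0157).

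UBP5, a deubiquitinating enzyme, was at -0.87 on the euploid spore, 0.52 on the disomic spore and 0.26 after 150 generations, and rose by 1.39 ± 0.18 (limma adjusted p = 0.00135). SPC25, a subunit of the Ndc80 complex that ties kinetochores to microtubules, was at -1.01, 0.31 and 0.24 on the same arrays and rose by 1.32 ± 0.21 (limma adjusted p = 0.00372). CIN8, a kinesin motor of the mitotic spindle, rose by 1.33. ECM32, a helicase, rose by 1.39, FLO8, an activator of flocculation and filamentous growth, by 1.25, and GLN3, an activator of nitrogen catabolic genes, by 1.25.

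For some of the larger rises the euploid spore lay low among the diploid arrays. SWI4, the DNA-binding subunit of the SBF factor of G1 transcription, stood at -2.69 on the euploid spore and -1.44 on the disomic spore, a rise of 1.25 (limma adjusted p = 0.0242). The diploid arrays were at -2.82, -1.82 and -1.51 (lowest, median, highest) and haploid ancestors 1 and 2 at -1.84 and -1.33, so the disomic value was above every diploid array and the euploid value was inside their range. RNR1, the large subunit of ribonucleotide reductase, stood at 1.50 on the euploid spore and 2.58 on the disomic spore, and rose by 1.08 (limma adjusted p = 0.0014). Both spores lay inside the diploid range of 0.13 to 2.88, whose median was 2.40, and the haploid ancestors were at 2.21 and 2.52. RSP5, an essential ubiquitin ligase, was at 0.91 on the euploid spore, below every diploid array, and at 1.98 on the disomic spore, above every one (rise of 1.08). The euploid spore was below all diploid arrays for 9 members, AVT2, PRP22, PTP3, MET6, RSP5, VFA1, YER137C, SCC4 and COG3, a share of 3.75% that was under the 5.83% of all tested genes.

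**Figure D3:**
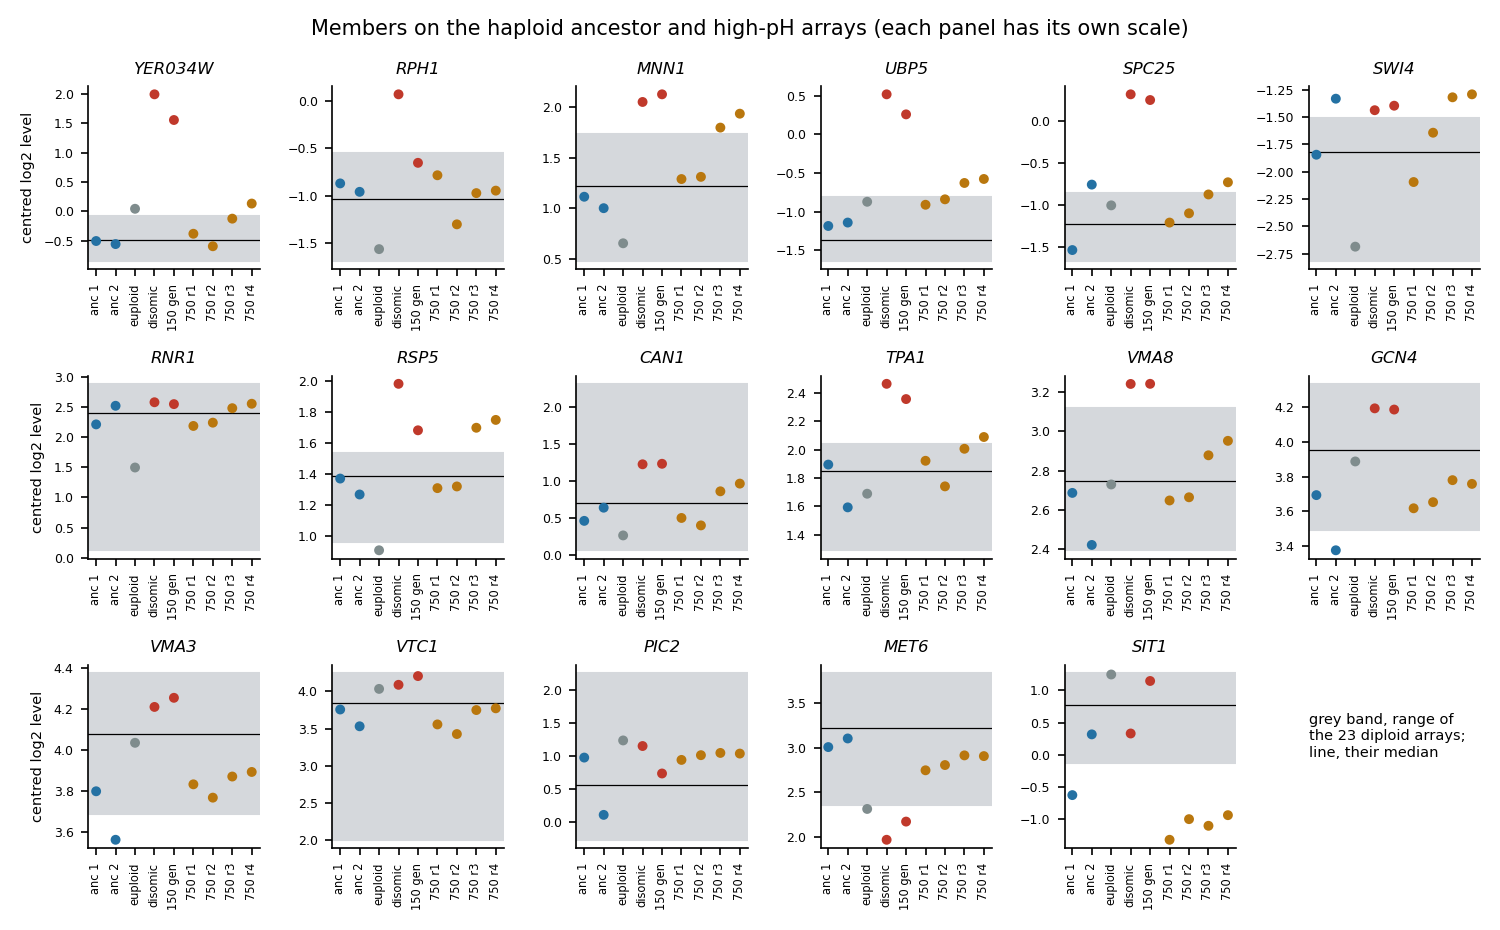
Centred log2 level of 17 members on the 2 haploid ancestor arrays (blue), the euploid spore (grey), the disomic spore and the 150-generation array (red) and the 4 arrays after 750 generations (orange), with the range (band) and median (line) of the 23 diploid arrays. YER034W, UBP5, SPC25, MNN1, RSP5, TPA1 and VMA8 exceed the diploid band on both red arrays, whereas RNR1, CAN1, GCN4, VMA3, VTC1 and PIC2 lie inside it and MET6 lies below it.

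The 4 members nearest the median response, each at 0.77 or 0.78, show what a typical member did. TPA1, tied to translation termination, was at 1.69 on the euploid spore, 2.47 on the disomic spore and 2.36 after 150 generations. Both of the higher values exceeded the highest diploid array at 2.04 (limma adjusted p = 0.00921 for the disomic spore). DNF1, a phospholipid flippase of the plasma membrane, rose as well (limma adjusted p = 0.0218). The other two, the glutaredoxin GRX4 (limma adjusted p = 0.0954) and EAF5, a subunit of the NuA4 histone acetyltransferase (0.0709), missed the threshold with a difference of about the same size.

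At the other end stood members with little or no gain over the euploid spore. VTC1, a subunit of the vacuolar complex that makes polyphosphate, was at 4.03 on the euploid spore, 4.09 on the disomic spore and 4.21 after 150 generations, inside the diploid range of 2.00 to 4.24. Its difference was 0.05, with a 95% interval of -0.34 to 0.45 that excludes a doubling. SNU13, a protein shared by the spliceosome and by small nucleolar particles, had 0.15 (interval 0.05 to 0.24, limma adjusted p = 0.0849). ERG28 of ergosterol synthesis had -0.07, the mitochondrial carrier PIC2 -0.09 and MIT1, a regulator of pseudohyphal growth, -0.20, and none of these passed the test. PET122, DSF1, YEL076C-A, RGI1 and COM2 completed the lowest 10 with differences of -0.03 to 0.01. For ERG28 and PET122 the euploid spore itself, at 1.57 and -2.72, exceeded the highest diploid arrays, at 1.51 and -2.94. Set against the diploid median, the disomic spore was at 0.63 for PET122, 0.60 for PIC2, 0.58 for ERG28 and 0.51 for COM2. It was at 0.41 for RGI1, 0.27 for YEL076C-A, 0.26 for DSF1, 0.25 for VTC1, 0.13 for SNU13 and -0.12 for MIT1. DSF1 and YEL076C-A are read by probe sets that can match other genes, and the interval of RGI1 was wide, from -1.23 to 1.24.

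MET6 and SIT1 had the lowest differences. MET6 was at 2.31 on the euploid spore, 1.97 on the disomic spore and 2.17 after 150 generations, against 2.36 to 3.83 on the diploid arrays and 2.75, 2.80, 2.91 and 2.90 on replicates 1 to 4 after 750 generations. All 3 arrays of its set were below every diploid array, and the difference of -0.34 ± 0.11 missed the threshold (limma adjusted p = 0.086). SIT1, a transporter of iron bound to siderophores, was at 1.25 on the euploid spore, 0.33 on the disomic spore and 1.15 after 150 generations, with diploid arrays from -0.14 to 1.27. It fell by 0.92 ± 0.19 in the disomic spore (limma adjusted p = 0.0148), a call that was lost without the set term, with the set as a random block and in a fit of all 40 arrays. After 150 generations its difference from the euploid spore was -0.10 (limma adjusted p = 0.914). Its level after 750 generations ran from -1.32 in replicate 1 to -0.94 in replicate 4, below every diploid array in all 4, with haploid ancestor array 1 at -0.63.

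The size of the response varied with the signal of a gene on the diploid arrays. Among 5 groups of 48 members ordered from the lowest to the highest signal, the median disomic difference was 0.72, 0.91, 0.85, 0.84 and 0.53, and 17, 33, 31, 32 and 28 members were called higher. On the 150-generation array the medians were 0.86, 0.91, 0.83, 0.77 and 0.57. Within the brighter 120 members Spearman's rho of response and signal was -0.56, and within the dimmer 120 it was 0.30, both across genes that share arrays. The same was computed for chromosome III in clones that carried it at another dose. In the trisomic clone the same 5 signal ranges gave 0.43, 0.59, 0.53, 0.46 and 0.37 over 146 chromosome III genes, against the diploid ancestor. In the monosomic clone they gave -0.36, -0.56, -0.58, -0.48 and -0.43. The smallest response was in the brightest range in the trisomic clone and in the dimmest range in the monosomic clone. The part of the array's signal range in these differences was not tested.

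**Figure D4:**
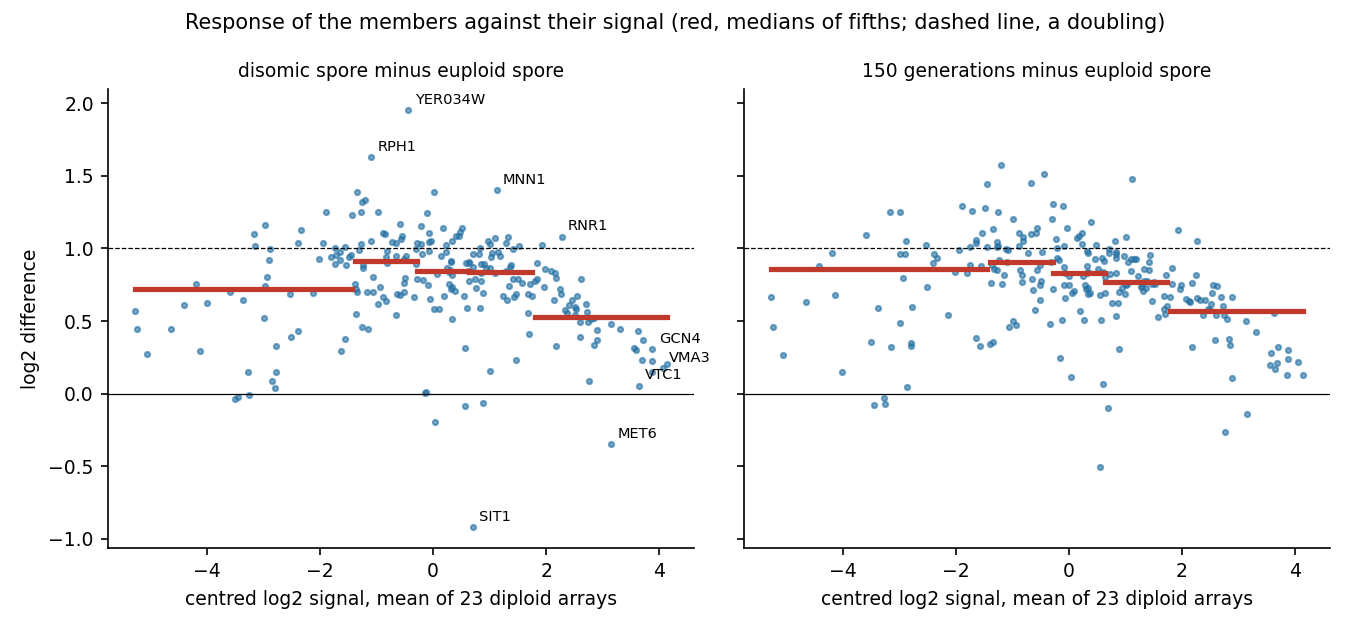
Log2 difference of each member from the euploid spore (vertical axis) against its centred log2 signal on the diploid arrays (horizontal axis), for the disomic spore and the 150-generation array, with medians of 5 groups of 48 members in red and a doubling as a dashed line. The median of the brightest group is 0.53 in the disomic spore and 0.57 after 150 generations, and the other groups lie at 0.72 or more.

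The brightest members illustrate this. HYP2, which encodes the translation factor eIF5A, differed by 0.21 in the disomic spore and VMA3, the proteolipid subunit of the vacuolar proton pump, by 0.18, and neither passed the test there. GCN4, the activator of amino acid synthesis genes, was at 3.89 on the euploid spore, 4.19 on the disomic spore and 4.18 after 150 generations, inside the diploid range. It rose by 0.30 ± 0.07 (limma adjusted p = 0.0292), the smallest of the called rises in that comparison, and was not called without the set term, with the set as a random block, with centring on all genes or without the 3 evo39 spores. PDA1, a subunit of pyruvate dehydrogenase, rose by 0.37 (limma adjusted p = 0.00812), PAB1, the poly(A)-binding protein, by 0.31 (0.0281), and SCS2, a protein of contact sites of the endoplasmic reticulum, by 0.44 (0.0392). SAH1, a hydrolase of the methyl cycle, BMH1, a 14-3-3 protein, and the nuclear transport factor NTF2 had differences of 0.22, 0.23 and 0.30 that did not pass.

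Grouped by role, most lists had medians near that of all members. The share called higher in the disomic spore was 58.75% over all 240 members and 4.19% over all tested genes. List counts near the former share, such as 14 of 22 for transcription and chromatin, do not set a role apart from the other members. The DNA replication and repair list had 10 of 12 members higher in the disomic spore and a median difference of 0.99. It ran from KRE29 of the Smc5-Smc6 complex (0.52, not called) to MCM3 of the replicative helicase, which rose by 1.10. RAD3, a helicase of nucleotide excision repair, rose by 1.02, and MMS21, a SUMO ligase, by 1.10. Of 8 members for RNA splicing and decay 5 were higher (median 0.94), led by the spliceosomal helicase PRP22 at 1.14. Ribosome biogenesis had 6 of 7 higher (median 0.80), from ARB1 at 0.52 to POL5 at 1.05.

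Of the 12 members for the proteasome and ubiquitin, 10 were higher (median 0.79). PRE1 and PUP3, subunits of the 20S core, rose by 0.59 and 0.67, and RPN3 of the regulatory particle had 0.69 without passing the test. Transcription and chromatin had 14 of 22 members higher (median 0.83), with the INO80 subunits IES5 and IES6 at 0.94 and 0.96. The mitochondrial list had 17 of 23 higher (median 0.83). HEM14, an enzyme of heme synthesis, rose by 0.95 and the inner membrane insertase OXA1 by 0.73, whereas RIP1, the Rieske protein of complex III, had 0.16 and did not pass.

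The subunits of stable complexes, a list that overlaps the others, had 28 of 33 members higher (median 0.89). Within the vacuolar proton pump, the subunit VMA8 was at 2.73 on the euploid spore and 3.24 on both the disomic spore and the 150-generation array, above the highest diploid array at 3.12. It rose by 0.51 (limma adjusted p = 0.0345). VMA3, at 4.04, 4.21 and 4.26 on the same arrays, stayed inside the diploid range of 3.69 to 4.37, and its 0.18 did not pass (limma adjusted p = 0.0868). Over the vacuole and proton transport list 4 of 9 were higher (median 0.80), with AVT2, of a family of amino acid transporters, at 0.92 and VTC1 lowest.

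In the disomic spore lower medians were found in 3 lists. Plasma membrane transporters had a median of 0.39, with 2 of 8 members higher and SIT1 lower. CAN1, the arginine permease, was at 0.27 on the euploid spore, 1.23 on the disomic spore and 1.23 after 150 generations, and rose by 0.96 (limma adjusted p = 0.0257), while diploid arrays reached 2.31. FTR1, the iron permease, had 0.41 and the purine and cytosine permease FCY2 0.37, and neither passed. Amino acid synthesis had a median of 0.55 with 4 of 9 higher, from MET6 to SER3, an enzyme of serine synthesis, which rose by 0.93. The median signal of its 9 members on the diploid arrays was a centred log2 level of 2.59, in the brightest of the 5 signal groups. Meiosis and sporulation genes, which are low in growing cells, had a median of 0.60 with 2 of 8 higher, DMC1, the meiotic recombinase, rising by 0.81. Their median signal on the diploid arrays was -2.66, in the dimmest of the 5 signal groups, where 17 of 48 members were called higher. After 150 generations this list had a median of 0.81 with 4 of 8 higher, so its place among the lower lists did not hold there. SSA4, a heat-inducible chaperone outside these lists, had 0.66 with an adjusted p of 0.54 by limma.

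**Figure D5:**
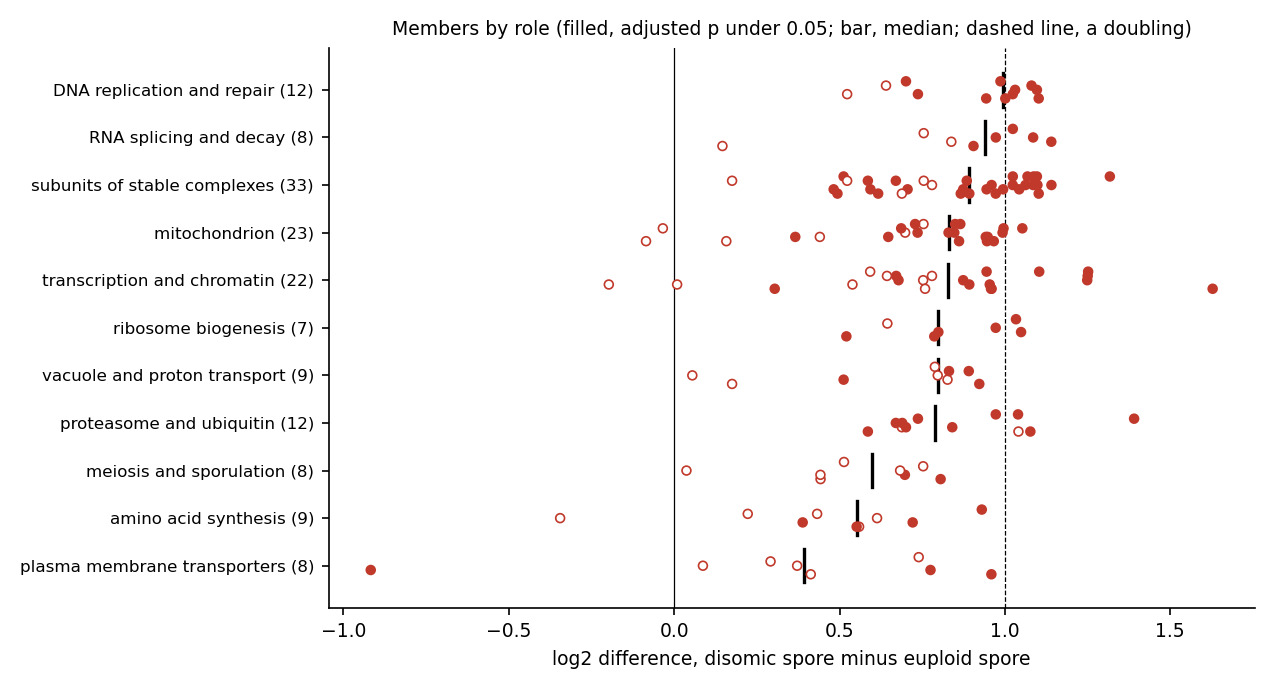
Log2 difference between disomic and euploid spore for the members of 11 lists by role, 1 point per gene, filled where limma's adjusted p was under 0.05, with the number of members in brackets and the list median as a bar. Medians run from 0.39 for plasma membrane transporters to 0.99 for DNA replication and repair.

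The 150-generation array gave a response of the same order. Against the euploid spore 142 members were called higher by limma and none lower, where 4.12% of all tested genes were higher and 1.38% lower. With p-values left unadjusted, at a threshold of 0.05, 200 members were higher and 0 lower, against 11.3% and 6.08% of all tested genes. The median difference was 0.76 with quartiles of 0.58 and 0.96. This comparison shares the euploid spore with the one above, so their values are only set side by side. CIN8 had the largest rise, 1.58, and was the only member with an interval wholly above a doubling. The intervals of 181 members covered a doubling and those of 58 lay below it. PIC2 had the lowest difference, -0.50 (limma adjusted p = 0.361). GCN4 rose by 0.30, VMA8 by 0.51 and VMA3 by 0.22, the latter passing the test here (limma adjusted p = 0.0347). RNR1 rose by 1.05, SWI4 by 1.29, SPC25 by 1.25 and UBP5 by 1.13. By list, DNA replication and repair had 9 of 12 higher, the mitochondrial list 13 of 23, the complexes 30 of 33 and ribosome biogenesis 4 of 7. The share higher in this comparison was 59.2% over all 240 members and 4.12% over all tested genes.

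A direct comparison of the disomic spore with the 150-generation array called no member in limma. Of all tested genes 0.0373% were called higher and 0.0373% lower. With p-values left unadjusted, at a threshold of 0.05, 3 members were higher and 3 lower, smaller shares than the 4.88% and 4.98% of all tested genes. The members' median difference was -0.00. With array weights in the fit 3 members were called higher and 2 lower, against 5.65% and 5.42% of all tested genes, among them RPH1 and YER188C-A (higher) and SIT1 (lower). RPH1 differed by 0.72, YER188C-A by 0.69 and ECM32 by 0.58, while SIT1 differed by -0.82, RIP1 by -0.53 and YER053C-A by -0.53. The adjusted p of these 6 ran from 0.162 for SIT1 upward.

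After 750 generations the replicates did not show a common level of chromosome V. Against haploid ancestor array 1, the only ancestor of their set, the median member differed by 0.02, 0.01, 0.28 and 0.35 in replicates 1 to 4. In replicates 3 and 4 this is a ratio of 1.22 and 1.28. Of 240 members 134, 126, 223 and 229 had a positive difference, against 49.2%, 50.4%, 56.6% and 56.0% of genes off chromosomes III and V. Replicates 3 and 4 also had the lower haploid marker levels given above, -0.54 and -1.10 against 0.15 and 0.19. Their a-cell genes were at 0.73 and 0.24 against 1.36 and 1.34. The part of these markers in the chromosome V levels was not tested.

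In replicates 3 and 4 the gain was spread over the chromosome, as the plot of members in order along chromosome V shows. Windows of 20 members had medians of 0.18 to 0.37 in replicate 3 and 0.22 to 0.44 in replicate 4. The brightest of the 5 signal groups again had the lowest medians, 0.17 and 0.22, and the other 4 groups ran from 0.32 to 0.36 and from 0.36 to 0.48. RSP5 was at 1.31, 1.32, 1.70 and 1.75 in replicates 1 to 4, so that replicates 3 and 4 exceeded the highest diploid array at 1.53 and ancestor array 1 at 1.37. MNN1 was at 1.29, 1.31, 1.80 and 1.94, again with replicates 3 and 4 above the diploid maximum of 1.74. CAN1 was at 0.50, 0.40, 0.86 and 0.97, all inside the diploid range. VTC1, at 3.56, 3.43, 3.75 and 3.77, exceeded ancestor array 1, at 3.76, only in replicate 4 and there by 0.016, and RPH1 was at -0.78, -1.30, -0.97 and -0.94 with the ancestor at -0.87.

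The disomic response and the difference of these replicates from the ancestor rest on separate arrays. Across the 240 members Spearman's rho between them was 0.11, -0.03, 0.22 and 0.23 for replicates 1 to 4, and for replicates 3 and 4 it was 0.07 and 0.09 over the 4967 genes off chromosomes III and V. These are weak correlations across genes that share arrays.

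As a group of 4 against ancestor array 1, no member was called by limma. Of all tested genes 0.0932% were called higher and 0% lower. With p-values left unadjusted, at a threshold of 0.05, 32 members were higher and 1 was lower, against 6.86% and 4.77% of all tested genes. The members' median difference was 0.17. Without a term for the normalization set 1 member was called higher and 1 lower, against 0.783% and 0.373% of all tested genes. Without replicate 1 it was 2 higher and 0 lower, against 0.503% and 0.242%. With array weights 126 members were higher and 2 lower, where 17.8% of all tested genes were higher and 12.7% lower. The 10 members with the smallest p had adjusted p-values of 0.223 to 0.328. PCM1, an enzyme of amino sugar synthesis for chitin and glycans, led them. It was at 1.73 on ancestor array 1 and at 2.00, 2.00, 2.23 and 2.29 in replicates 1 to 4, with diploid arrays from 1.04 to 2.16, a difference of 0.40 ± 0.10 (SE, 4 arrays against 1). SPC25 had 0.56, HPA3, an acetyltransferase, 0.49, UBP5 0.45, HEM14 0.42, RRT13 0.38, SLX8, a subunit of a SUMO-targeted ubiquitin ligase, 0.37, FMP52 0.36 and ZRG8 0.76. SIT1, with -0.46, was the only one of the 10 that was lower.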

How the data were processed

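The deposited values are log2 signals that the authors made with RMA, per the submitters' processing notes; its version is not given in the sources used here. RMA corrects background, quantile-normalizes arrays together and combines probes, so very low and very high signals can understate a ratio. Probe sets were matched to the R64 gene table by gene number, and probe sets of 1 gene were averaged. Array background was the 95th percentile of 1746 probe sets named for another species. Arrays sharing identical values formed 9 normalization sets, which were inferred from the values.

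The 17 haploid and spore arrays were fitted with limma 3.58.1 in R 4.3.3, with a term for group and for set, a trended prior variance, 10 residual degrees of freedom, and Benjamini-Hochberg adjustment over 5366 genes at 0.05. Scanner files were not used here, and the number of arrays limits the precision. In simulated data for the disomic minus euploid comparison over 5366 genes, 46% of differences of 0.5, 66% of 0.75, 84% of 1 and 94% of 1.5 were recovered, and 2.69% of calls were false. The simulated noise was independent between genes and gave the lone arrays the spread of the replicated groups. It held no trend over genes on 1 array, such as that with gene length, so these rates need not carry over to the real arrays.

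Named are the 10 members with the largest and the 10 with the smallest disomic minus euploid difference, the 4 nearest their median, the 6 that differ most between disomic spore and 150 generations, the 10 with the smallest p after 750 generations, the extremes of each list, and GCN4, VMA3, VMA8, VTC1, CAN1, RNR1, MET6, SSA4, SWI4 and RSP5. Other genes are examples from the lists, or the members with the brightest signal, and these were chosen after their values were seen. Members and lists were chosen with earlier results of these data known. Alternatives changed the set term, arrays in the fit, scaling, filter, choice of probe set and array weights, or left out arrays.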

Additional observations from a re-analysis of the deposited data

How the results depend on the processing

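No paired analysis was possible because the spores, the ancestor and the 150-generation array carry no replicate numbers in the labels. The count of called members after 750 generations moved from 0 to 2 without the set term and to 128 with array weights, and ran from 0 to 2 when 1 array was left out. The median member there ran from 0.11 to 0.22 when 1 array was left out, with the lowest value without replicate 4. Disomic spore against 150 generations moved from 0 to 5 called members with array weights. With values as deposited, 0, 0, 1 and 1 members exceeded all diploid arrays in replicates 1 to 4 after 750 generations (0.913%, 0.839%, 0.634% and 0.578% of all tested genes). With the haploid ancestors and evo39 spores as reference these counts were 50, 38, 162 and 180 (15.2%, 14%, 20.9% and 22.7% of all tested genes), and 95 (36.9%) for the euploid spore. The cause was not tested. Leaving out 1 array gave 128 to 157 called members, higher and lower together, for the disomic spore and 128 to 154 for 150 generations. Of all tested genes 3.63% to 4.57% were then higher and 1.57% to 2.27% lower for the disomic spore. For 150 generations these shares were 3.56% to 4.49% and 1.12% to 1.6%. The added fits without the 4 arrays after 750 generations and without 3 evo39 spores were chosen after seeing the data. For 150 generations against the euploid spore, the former gave 159 members higher and 0 lower, against 3.95% and 1.06% of all tested genes. Over single genes 1415 of 1460 alternatives kept direction and call, 29 gained and 16 lost the call, and none reversed. Leaving out haploid ancestor array 1 gives no estimate after 750 generations. All comparisons of spores rest on 1 array a side, and a lone array was assumed to vary like the replicated groups.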

Other observations

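Gene length varied with the disomic minus euploid difference. Across the 240 members Spearman's rho was 0.40, and in each of the 5 signal groups of 48 members it was positive, from 0.21 to 0.52. The same difference had a rho of 0.25 with length over the 4967 genes off chromosomes III and V, whose median difference was -0.01. Set against the median of the diploid arrays, the disomic spore gave 0.03 over the members. The euploid spore gave -0.33 over the members and -0.27 over the genes off chromosomes III and V. For 150 generations minus the same euploid spore the rho with length was 0.21 over the members. These are descriptions across genes that share arrays.

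Members that varied most among the 23 diploid arrays had a wider spread of response than those that varied least. Over all 240 members the relation was weak. The distance from the median response and the SD over the diploid arrays had a Spearman's rho of 0.14. Among the 60 members with the lowest SD over the diploid arrays, the SD of the disomic minus euploid difference was 0.28, and among the 60 with the highest it was 0.42.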
